A study of Mus musculus with 6 samples.

Results

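The constitutive subunits of the 26S proteasome were measured as RNA in C2C12 cells, a mouse myoblast line that fuses into myotubes in culture, after CNN3 knockdown. The genes were chosen by symbol from a fixed list of 32 subunits, made up of 7 alpha and 7 beta subunits of the 20S core, 6 ATPases and 4 other subunits of the base, and 8 subunits of the lid. All 32 were found among the 11835 genes with FPKM values (fragments scaled by transcript length and by the mapped fragments of the library), and the inducible immunoproteasome subunits Psmb8, Psmb9 and Psmb10 were kept apart as partners.

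Both groups were C2C12 cells grown with 10% fetal bovine serum and differentiated with 2% horse serum, and they differ in the siRNA they received. The siNC group (3 libraries) was transfected with NC siRNA and the siCNN3 group (3 libraries) with CNN3 siRNA, which targets the actin-binding protein calponin 3. The study's methods call the sequenced cells differentiating myoblasts and give harvest times for its proliferation and differentiation experiments, but tie neither a time nor 1 of its CNN3 siRNAs to the sequenced cultures. The labels number the libraries without saying whether they came from separate cultures, so p-values measure the spread between these libraries, which may be technical, in 1 cell line.

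The 26S proteasome is the main protease of the cytosol and nucleus for proteins tagged with ubiquitin. Stacked rings of alpha and beta subunits form a barrel whose cutting sites face inward, and the 19S cap, built from a base and a lid, binds the tagged protein, removes the ubiquitin chain, unfolds the protein with its ATPase ring and feeds it through the gate of the alpha ring. Each subunit is needed in a fixed ratio, and the transcription factor NRF1 is known to raise the subunit genes together when proteasome activity falls. In muscle the proteasome is known for the breakdown of contractile proteins during atrophy, while interferon replaces the cutting subunits with immunoproteasome counterparts.

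Promoter sequences are shown for the members that hold a response element core, since these elements are the known sites of regulators of both kinds of proteasome. RefSeq windows from 250 bases before to 50 after the start site (build GRCm38.p6) were found for 26 of the 32 members, with 28 windows, and not for Psmb1, Psmb2, Psmb7, Psmc3, Psmd3 and Psmd7. Letters were searched on both strands, and matches of different motifs overlapped in 0 member windows. The antioxidant response element core TGACNNNGC, which NRF1 and NRF2 read, was in 5 member windows (17.9%) and in 12.4% of all 32851 windows. Its matches are in capitals in the 5 sequences below, which read 5′ to 3′ on the strand of the gene with up to 20 bases on each side. The windows were searched whole, but no base after the start site is printed, so the sequence of Psmb6 ends at its match.
Adrm1: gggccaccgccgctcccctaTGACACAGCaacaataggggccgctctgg
Psmb5: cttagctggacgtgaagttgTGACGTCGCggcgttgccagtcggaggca
Psmb6: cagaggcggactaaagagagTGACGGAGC
Psmc6: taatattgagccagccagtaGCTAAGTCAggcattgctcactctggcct
Psmd12: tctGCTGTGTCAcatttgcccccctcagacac

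They lie at chr2:180171406-180171454 (plus strand) for Adrm1, chr14:54618014-54618062 (minus strand) for Psmb5, chr11:70525328-70525356 (plus strand) for Psmb6, chr14:45329577-45329625 (plus strand) for Psmc6 and chr11:107479278-107479309 (plus strand) for Psmd12. The match began 162 bases before the start site in Adrm1, 47 in Psmb5 and 9 in Psmb6, on the strand of the gene. In Psmc6 and Psmd12 it began 227 and 247 bases before it and read on the opposite strand.

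The core of the interferon-stimulated response element, searched as GAAA, any 2 bases and GAAA again, was in 2 member windows (7.14%) and in 3.44% of all windows. Both matches, in capitals, are on the strand opposite to the gene, 163 bases before the start site of Psmb3 (chr11:97703251-97703300, plus strand) and 80 before that of Psmd4 (chr3:95042665-95042714, minus strand).
Psmb3: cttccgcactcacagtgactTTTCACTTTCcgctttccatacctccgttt
Psmd4: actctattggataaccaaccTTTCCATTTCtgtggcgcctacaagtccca

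The CCAAT box, read by NF-Y, was in 11 member windows (39.3%) and in 37.4% of all windows. The 3 windows of Psmb8, Psmb9 and Psmb10 held 0 matches to the cores of both response elements, and of the 3 windows of Psme1 and Psme2, the subunits of the PA28 activator, 1 window of Psme1 held the interferon-stimulated core. A match describes letters and not a site in use, and a window without one says nothing of the factor.

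After CNN3 knockdown the RNA of nearly all constitutive subunits was measured slightly above the siNC group, with no single subunit past the threshold. Of the 32 members, 31 had a log2 fold change above 0, against 54% of the 11593 genes tested, and the exception was Psmd2. The related lists described below also had larger shares above 0 than all genes. They ran from 69.2% of the proteasome-associated proteins to 100% of the assembly chaperones tested. The median log2 fold change was 0.29 for the members and 0.0280 for all genes, and single members ranged from -0.18 to 0.73. Fold changes are differences of log2(FPKM + 1) between siCNN3 and siNC, fitted with limma, and this scale compresses differences at low FPKM.

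At an adjusted p below 0.05 (limma with Benjamini-Hochberg adjustment over all genes tested), 0 of the 32 members were called, where 2.06% of all genes were called. Of these genes 200 were higher, or 1.73% of those tested, and 39 lower. The smallest adjusted p of a member was 0.0741 for Psmc6 (limma). At an unadjusted p below 0.05, 15 members were higher and 0 lower, beside 9.94% and 6.14% of all genes, and an ordinary test of each gene with no shared spread gave 10 members higher before adjustment, beside 1084 of all genes. After adjustment that test called 0 of all 11593 genes, so its 0 members say nothing about them. The 3 siCNN3 values lay above all 3 siNC values in 16 members (50%), beside 13.8% of all genes, and below them in 0, beside 9.35% of all genes. An exact permutation test of 3 libraries against 3 cannot go below p = 0.1.

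The counts depended on siCNN3 replicate 3, which was the lowest library of its group in 29 members, and on the scaling. Without it, 3 members were called, namely Psma1, Psmb3 and Psmc6 (adjusted p = 0.0479, 0.0403 and 0.0355, limma), beside 444 genes higher and 161 lower of the 11593 tested in the same fit, and 27 members were higher without overlap, beside 3234 of all genes. The unadjusted count was 6 members without siNC replicate 1, 7 without siNC replicate 3, 6 without siCNN3 replicate 1 and 5 without siCNN3 replicate 2, where 919, 930, 788 and 749 of all genes were higher at that p. After quantile normalization 27 of 32 members had a log2 fold change above 0, beside 43.7% of all genes, their median was 0.18, and 8 were higher and 0 lower at an unadjusted p below 0.05, beside 947 and 1252 of all genes. That scaling called 199 genes higher and 93 lower.

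**Figure D1:**
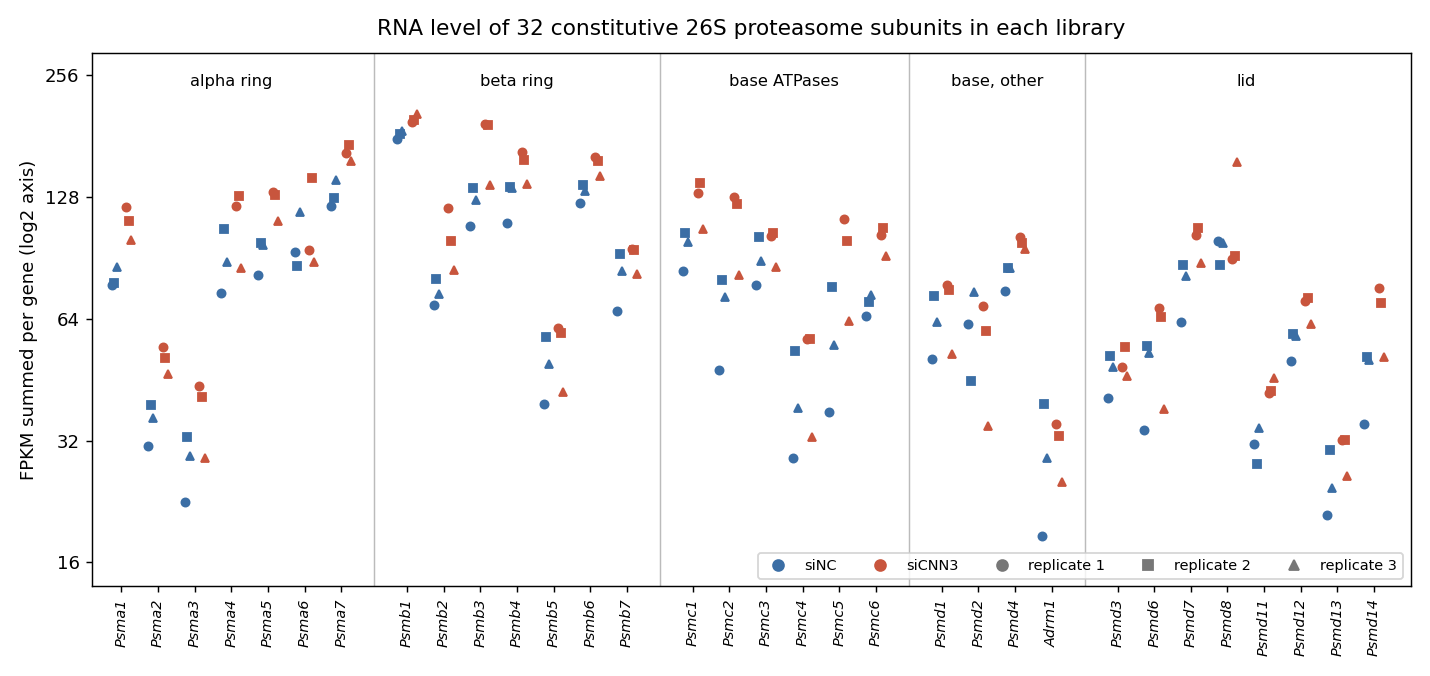
FPKM of each of the 32 subunits (log2 axis) in the 3 siNC (blue) and 3 siCNN3 (red) libraries, with the marker shape giving the replicate. The red points lie above all blue points in 16 members, and the red triangle, siCNN3 replicate 3, is usually the lowest of its group.

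Total FPKM of the matched transcripts was lowest in siNC replicate 1, at 321988, and lay between 346300 and 355025 in the other libraries. The number of reads is unknown, so no counting error can be given. Cnn3, the targeted gene, was between 61.4 and 62.8 FPKM in siNC and between 19.04 and 39.2 FPKM in siCNN3 (log2 fold change -1.19, limma adjusted p = 0.0669), and it was called without siCNN3 replicate 2 (limma adjusted p = 0.0475). The labels give the cells as myotubes, and 9 of 10 myotube markers were listed, with Myog, a transcription factor of muscle differentiation, between 1.23 and 3.07 FPKM in siNC and Ckm below the filter. The summed myotube markers ran from 173.6 to 205.4 FPKM in siNC and from 101.3 to 121.8 FPKM in siCNN3, all 8 tested markers were lower without overlap, and 4 were called lower. Of 10 blood and immune markers 3 were listed, summing to between 151.5 and 425.4 FPKM in siNC and between 34.4 and 46.1 FPKM in siCNN3, nearly all of it Hba-a1 and Hbb-bs, and 0 of 5 endothelial and adipocyte markers were listed. Of 3 myoblast markers Myf5 and Myod1 were listed and Pax7 was not, summing to between 5.62 and 7.94 FPKM in siNC and between 6.77 and 14.5 FPKM in siCNN3. Myf5 measured 3.55, 5.64 and 4.84 FPKM with siNC and 12.95, 11.4 and 5.40 FPKM with siCNN3, with overlap and siCNN3 replicate 3 the lowest of its group (log2 fold change 0.88, limma adjusted p = 0.238), and Myod1 had lower values in siCNN3 without overlap (log2 fold change -0.42, limma adjusted p = 0.312), neither called. The part of these markers in the results on the proteasome was not tested, and fewer cells of a type and less RNA per cell cannot be told apart in such bulk RNA.

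The alpha ring forms the gate of the core and the dock of the cap. Of its 7 genes, 4 were higher at an unadjusted p below 0.05 and without overlap, 0 were called, and the median log2 fold change was 0.41. Among all genes tested, 9.94% were higher at that p, 13.8% were higher without overlap and 2.06% were called. Psma1 measured 77.4, 78.6 and 85.7 FPKM with siNC and 121.0, 111.8 and 99.97 FPKM with siCNN3, with a log2 fold change of 0.45 and a standard error of 0.112 (limma adjusted p = 0.106). Psma2 measured 31.1, 39.2 and 36.5 FPKM with siNC and 54.4, 51.3 and 46.8 FPKM with siCNN3, and its log2 fold change was 0.51 ± 0.129 (SE) (limma adjusted p = 0.112). In both genes every siCNN3 library lay above every siNC library, and siCNN3 replicate 1 was the highest.

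The groups of Psma5 and Psma7, 2 further subunits of the ring, did not overlap either. Psma5 went from a siNC mean of 92.5 ± 8.89 FPKM to a siCNN3 mean of 124.2 ± 10.9 FPKM (SD, n = 3 each), a log2 fold change of 0.42 (limma adjusted p = 0.148). Psma7, the highest gene of the ring, measured 121.4, 127.5 and 140.7 FPKM with siNC and 164.4, 171.6 and 157.0 FPKM with siCNN3, a log2 fold change of 0.34 (limma adjusted p = 0.162).

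The groups of Psma3, Psma4 and Psma6 overlapped. Psma3, the lowest of the ring, measured 22.5, 32.7 and 29.4 FPKM with siNC and 43.7, 40.9 and 29.0 FPKM with siCNN3, and siCNN3 replicate 3 fell among the siNC libraries. Psma4 had means of 89.8 ± 16.3 and 111.7 ± 23.1 FPKM (SD, n = 3 each) in siNC and siCNN3. Psma6 measured 93.4, 86.2 and 117.5 FPKM with siNC and 94.7, 142.9 and 88.2 FPKM with siCNN3, so that only siCNN3 replicate 2 stood above siNC. Its log2 fold change was 0.11 (limma adjusted p = 0.836) and turned to -0.10 without that library and to -0.0200 after quantile normalization.

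The beta ring carries the cutting sites. Of its 7 genes, 5 were higher without overlap, 3 were higher at an unadjusted p below 0.05, 0 were called, and the median log2 fold change was 0.23. The shares over all genes were 13.8% without overlap, 9.94% at that p and 2.06% called. Psmb1 and the 3 catalytic subunits had the smallest fold changes of the ring. In GRCm38 the catalytic genes lie on chromosome 14 from 54614119 to 54618022 (Psmb5, minus strand), chromosome 11 from 70525367 to 70527858 (Psmb6, plus strand) and chromosome 2 from 38588036 to 38644087 (Psmb7, minus strand). Psmb5, with the chymotrypsin-like site, measured 39.4, 57.7 and 49.6 FPKM with siNC and 60.9, 59.2 and 42.2 FPKM with siCNN3, and its groups overlapped (log2 fold change 0.14, SE 0.198, limma adjusted p = 0.768). Without siNC replicate 1, its lowest library, the log2 fold change of Psmb5 was -0.0027.

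Psmb6, with the caspase-like site, measured 123.9, 136.6 and 132.2 FPKM with siNC and 160.6, 157.2 and 144.4 FPKM with siCNN3, and all siCNN3 values were higher (log2 fold change 0.23, SE 0.0972, limma adjusted p = 0.306). Psmb7, with the trypsin-like site, measured 66.9, 92.5 and 84.2 FPKM with siNC and 95.4, 94.6 and 82.6 FPKM with siCNN3, with overlap (log2 fold change 0.17, SE 0.146, limma adjusted p = 0.611).

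Of the structural beta subunits, Psmb3 and Psmb2 had the largest fold changes. Psmb3 measured 108.5, 134.5 and 125.7 FPKM with siNC and 194.2, 193.2 and 137.0 FPKM with siCNN3 (log2 fold change 0.49, limma adjusted p = 0.213), so siCNN3 replicate 3 stood just above siNC and the other two well above it. Psmb2 measured 69.1, 80.2 and 73.7 FPKM with siNC and 120.1, 99.8 and 84.7 FPKM with siCNN3 (log2 fold change 0.43, limma adjusted p = 0.219). Psmb4 had means of 126.8 ± 14.1 and 153.8 ± 14.1 FPKM (SD, n = 3 each), again without overlap.

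Psmb1 was the highest and the least variable of all 32 members. It measured 178.2, 182.7 and 186.6 FPKM with siNC and 195.9, 198.3 and 204.7 FPKM with siCNN3, with a coefficient of variation of 2.33% and 2.29%. Its groups did not overlap, but the difference was small (log2 fold change 0.13, SE 0.0854, limma adjusted p = 0.510) and became -0.0280 after quantile normalization.

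The ATPase ring of the base unfolds the substrate and opens the gate, and the 3 members with the largest fold changes, Psmc2, Psmc5 and Psmc6, belong to it. In GRCm38 they lie on chromosome 5 from 21785283 to 21803787 (Psmc2), chromosome 11 from 106256154 to 106263120 (Psmc5) and chromosome 14 from 45329788 to 45349705 (Psmc6), on the plus strand. All 6 ATPases had a log2 fold change above 0, with a median of 0.46, 3 were higher at an unadjusted p below 0.05 and without overlap, and 0 were called. Beside them stand 54% of all genes above 0, 9.94% higher at that p, 13.8% higher without overlap and 2.06% called. Psmc2 measured 47.8, 79.9 and 72.3 FPKM with siNC and 127.9, 123.05 and 82.2 FPKM with siCNN3, a log2 fold change of 0.73 ± 0.246 (SE) (limma adjusted p = 0.207). Psmc5 measured 37.7, 76.7 and 55.2 FPKM with siNC and 113.1, 99.5 and 63.0 FPKM with siCNN3, a log2 fold change of 0.71 ± 0.307 (SE) (limma adjusted p = 0.324). In both genes siCNN3 replicates 1 and 2 were above all siNC libraries, while siCNN3 replicate 3 was just above siNC replicate 2 in Psmc2 and between siNC replicates 3 and 2 in Psmc5.

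Psmc6 had a smaller fold change and a smaller spread. It measured 64.8, 70.5 and 73.1 FPKM with siNC and 103.0, 107.4 and 91.2 FPKM with siCNN3, with every siCNN3 library above siNC. Its log2 fold change was 0.52 ± 0.111 (SE) (limma adjusted p = 0.0741), and under median-of-ratios scaling it was called (limma adjusted p = 0.0482).

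Psmc1 and Psmc3 are among the ATPases whose tails reach into pockets of the alpha ring. Psmc1 measured 83.8, 104.5 and 98.9 FPKM with siNC and 131.2, 138.8 and 106.7 FPKM with siCNN3, without overlap (log2 fold change 0.39, limma adjusted p = 0.252). Psmc3 measured 77.4, 101.8 and 89.0 FPKM with siNC and 102.6, 104.4 and 86.0 FPKM with siCNN3, with overlap (log2 fold change 0.13, limma adjusted p = 0.695), and its difference was -0.0095 after quantile normalization. Psmc4 measured 29.0, 53.3 and 38.6 FPKM with siNC and 57.0, 56.9 and 32.6 FPKM with siCNN3, so siCNN3 replicate 3 was below the siNC mean (log2 fold change 0.27, limma adjusted p = 0.696).

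The other subunits of the base receive ubiquitin chains and hold the scaffold, and their median log2 fold change was 0.14, the lowest of the sub-assemblies. Psmd4, a ubiquitin receptor, was the 1 gene of these 4 without overlap, beside 13.8% of all genes higher without overlap. It measured 74.8, 85.3 and 85.6 FPKM with siNC and 101.7, 98.6 and 95.1 FPKM with siCNN3 (log2 fold change 0.26, SE 0.103, limma adjusted p = 0.276). Adrm1, a second receptor that also binds the deubiquitinase Uchl5, measured 18.6, 39.3 and 29.0 FPKM with siNC and 35.2, 32.9 and 25.3 FPKM with siCNN3. Its groups overlapped fully, the siNC coefficient of variation of 35.7% was the highest of the members, and the log2 fold change of 0.15 (limma adjusted p = 0.831) turned to -0.13 without siNC replicate 1.

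Psmd2 and Psmd1 are the large scaffold proteins of the base. Psmd2 measured 62.0, 44.8 and 74.6 FPKM with siNC and 68.7, 59.5 and 34.7 FPKM with siCNN3, and its groups overlapped (log2 fold change -0.18, SE 0.290, limma adjusted p = 0.804). It was the 1 member with a fold change below 0, and without siCNN3 replicate 3 the value was 0.11. Psmd1 had means of 62.2 ± 10.9 and 68.4 ± 14.01 FPKM (SD, n = 3 each), with overlap, and a log2 fold change of 0.13 that was -0.0055 without siNC replicate 1.

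The lid removes the ubiquitin chain and clamps the cap to the core. Of its 8 genes, 4 were higher at an unadjusted p below 0.05, 3 were higher without overlap, 0 were called, and the median log2 fold change was 0.27. For all genes these shares were 9.94%, 13.8% and, for calls, 2.06%. Psmd14, the deubiquitinase of the lid, measured 35.2, 51.6 and 50.7 FPKM with siNC and 76.1, 69.96 and 51.3 FPKM with siCNN3 (log2 fold change 0.51, SE 0.208, limma adjusted p = 0.293). Its siCNN3 replicate 3 lay within the siNC range and the others above it.

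Psmd11, which bridges the lid and the alpha ring, measured 31.4, 28.0 and 34.4 FPKM with siNC and 41.9, 42.5 and 45.7 FPKM with siCNN3 (log2 fold change 0.46, SE 0.1198, limma adjusted p = 0.116). Every siCNN3 library was above siNC, and here replicate 3 was the highest of its group. Psmd7, the inactive partner of Psmd14, had means of 77.1 ± 12.5 and 99.3 ± 10.3 FPKM (SD, n = 3 each), and Psmd12 had means of 55.6 ± 4.59 and 68.3 ± 5.26 FPKM (SD, n = 3 each), both without overlap.

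The groups of Psmd3, Psmd6, Psmd8, Psmd13 and Psmd14 overlapped. Psmd13 was the lowest of all members, with 20.9, 30.3 and 24.4 FPKM for siNC and 32.1, 32.02 and 26.1 FPKM for siCNN3 (log2 fold change 0.26, limma adjusted p = 0.510). Psmd3 measured 40.7, 51.9 and 48.5 FPKM with siNC and 48.5, 54.5 and 46.2 FPKM with siCNN3 (log2 fold change 0.0828, limma adjusted p = 0.801), and the value was -0.0154 without siNC replicate 1 and -0.0123 after quantile normalization. Psmd6 had means of 47.2 ± 11.4 and 57.0 ± 16.2 FPKM (SD, n = 3 each), with siCNN3 replicate 3 near the lowest siNC library.

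**Figure D2:**
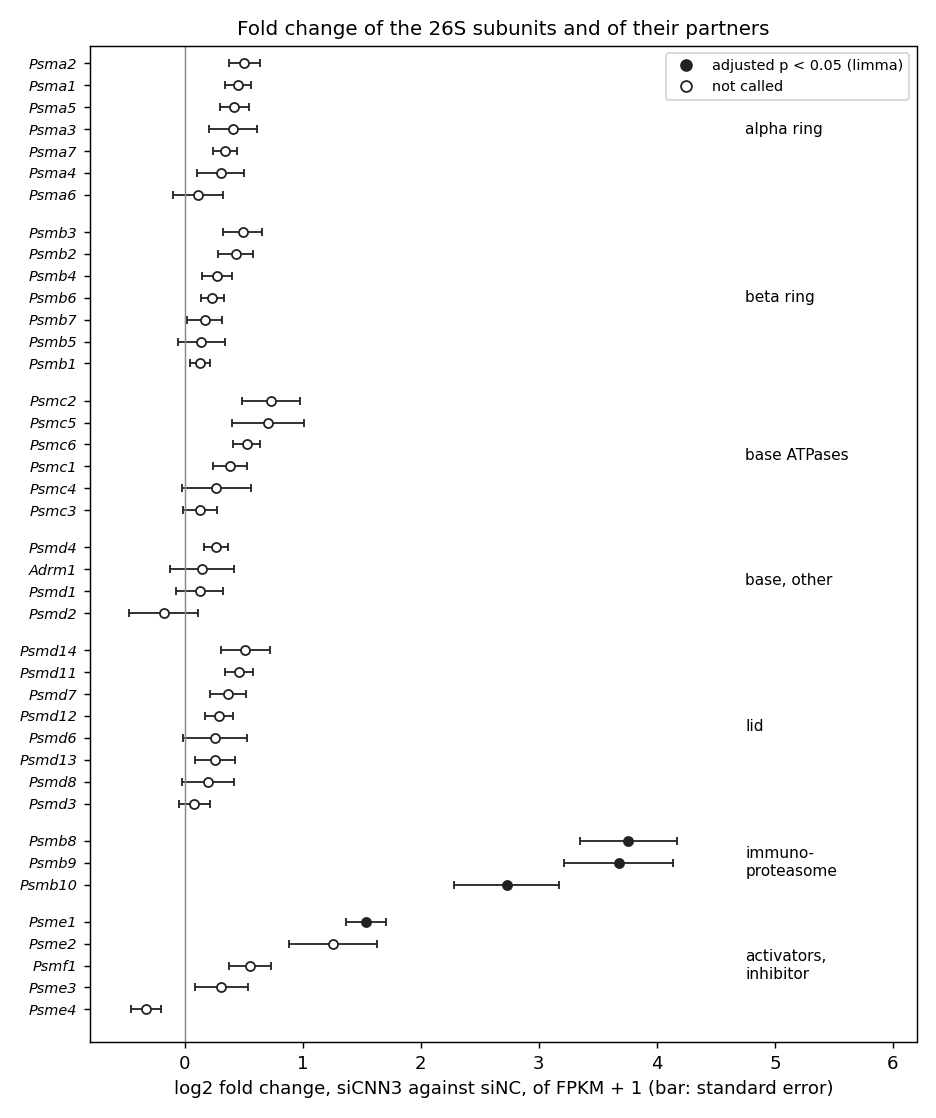
Log2 fold change of FPKM + 1, siCNN3 against siNC, for the 32 subunits and their partners, with bars for the standard error and filled points for genes called by limma. All 32 members lie between -0.18 and 0.73 with open points, and Psmb8, Psmb9, Psmb10 and Psme1 lie between 1.54 and 3.76 with filled points.

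Psmd8, a lid subunit known to join late in lid assembly, had overlapping gene sums in the groups, while its leading transcript differed between libraries. Its sum was 99.8, 86.7 and 98.7 FPKM in siNC and 89.9, 91.7 and 156.5 FPKM in siCNN3, with overlap, and the log2 fold change of 0.20 (limma adjusted p = 0.711) turned to -0.0632 without siCNN3 replicate 3. The gene lies on the minus strand of chromosome 7 of GRCm38, from 29174188 to 29180701. Its 4 listed transcripts are coding and share the inner end of their first exon at 29180277, while its outer end is at 29180552 for Psmd8-202, 29180481 for Psmd8-207, 29180673 for Psmd8-203 and 29180701 for Psmd8-201.

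Psmd8-203, with 1059 coding nucleotides, measured 72.6, 10.9 and 70.2 FPKM with siNC and 0.425, 0.899 and 1.24 FPKM with siCNN3. Psmd8-202, with 867 coding nucleotides, measured 1.40, 35.7 and 1.54 FPKM with siNC and 53.1, 58.4 and 102.7 FPKM with siCNN3. Thus Psmd8-203 carried 72.8% and 71.1% of the gene in siNC replicates 1 and 3, while Psmd8-202 carried between 59.0% and 65.6% in the siCNN3 libraries. SiNC replicate 2 stood between them, with 41.2% for Psmd8-202 and 12.6% for Psmd8-203.

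Neither transcript was called when each transcript was tested on its own (adjusted p = 0.0854 for Psmd8-203 and 0.308 for Psmd8-202, limma). The first exons of these transcripts nest within each other, with 276 bases in Psmd8-202 and 397 in Psmd8-203, so the split rests on reads at the outer end of 1 exon. How reads were shared between the transcripts is not given in the sources used here, and whether the split is one of estimation was not tested. Psmd8 was described in this detail after its values were seen.

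**Figure D3:**
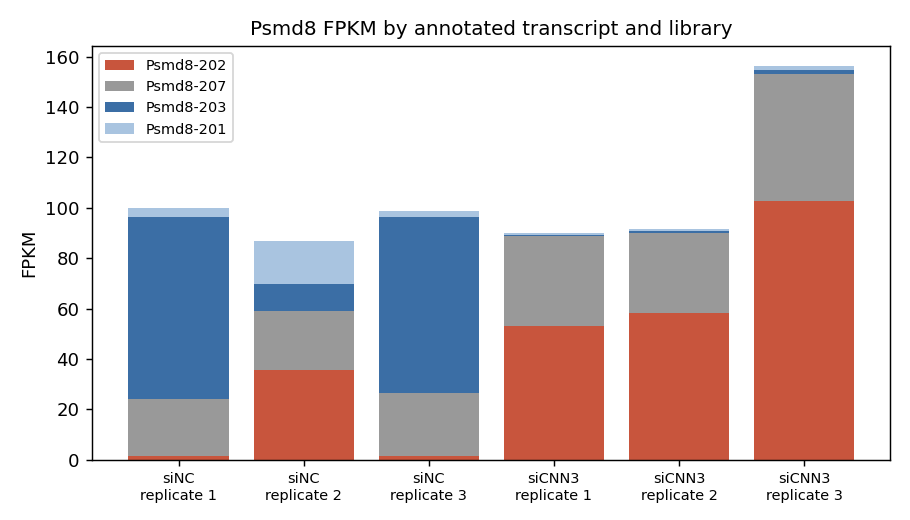
FPKM of the 4 annotated Psmd8 transcripts stacked for each of the 6 libraries. Psmd8-203 (dark blue) fills most of the bar in siNC replicates 1 and 3 and nearly none in siCNN3, where Psmd8-202 (red) is the largest.

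The 32 genes had 55 listed transcripts, 18 genes had 1, and in 4 genes the main transcript carried under 70% of the FPKM. Of the 54 transcripts tested on their own 0 were called, beside 117 of all 21658 tested (limma), and 14 were higher and 1 lower at an unadjusted p below 0.05, beside 1472 and 847 of all transcripts. In 5 members a transcript was listed at 0 in some library, which can be a failed estimate. The clearest was Psmd12-203 with 16.3, 0.0861 and 0 FPKM for siNC and 15.6, 3.75 and 2.43 FPKM for siCNN3.

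Exons of Psma4, Psma5, Psmb5, Psmb7, Psmc3, Psmd1, Psmd3 and Psmd13 overlap those of another annotated gene, on the opposite strand for all of them but Psmb5 and for both strands in Psmd1. The partners of Psmb7, Psmc3 and Psmd13 (Nek6, Slc39a13 and Sirt3) were listed too. The sources used here do not say whether strand was used in counting, so reads of these pairs may not have been told apart, and the same holds for Psmb9 with Tap1 and Psme1 with Emc9.

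The subunits of each sub-assembly were summed to compare levels per length. Over the 6 libraries, the median FPKM of a gene was 140.3 in the beta ring, 100.7 in the alpha ring, 86.9 in the ATPases, 61.4 in the other base subunits and 54.0 in the lid. The ranges of the sub-assemblies overlapped, from 51.5 to 191.1 FPKM in the beta ring and from 27.6 to 103.9 FPKM in the lid. The sum of all 32 members was 2121, 2566 and 2510 FPKM in siNC and 3171, 3168 and 2635 FPKM in siCNN3, or 1.25 times as high by the means. This was 0.705% ± 0.0405 (SD, n = 3) of the total FPKM in siNC and 0.849% ± 0.0852 (SD, n = 3) in siCNN3.

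The ratio of the means, siCNN3 to siNC, was 1.38 for the ATPases, 1.28 for the alpha ring, 1.24 for the lid, 1.21 for the beta ring and 1.08 for the other base subunits. The groups did not overlap for the alpha ring, the beta ring and the lid, and overlapped for the ATPases and the other base subunits. In the lid, Psmd8 alone made up 156.5 of the 514.1 FPKM of siCNN3 replicate 3 and 86.7 of the 448.8 FPKM of siNC replicate 2. Without Psmd8 the lid sums of the groups overlap. The 19S sum divided by the 20S sum was 0.811 ± 0.0395 (SD, n = 3) in siNC and 0.826 ± 0.0128 (SD, n = 3) in siCNN3, with overlap, so the sums of cap and core differed between the groups by similar factors (1.26 and 1.24).

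**Figure D4:**
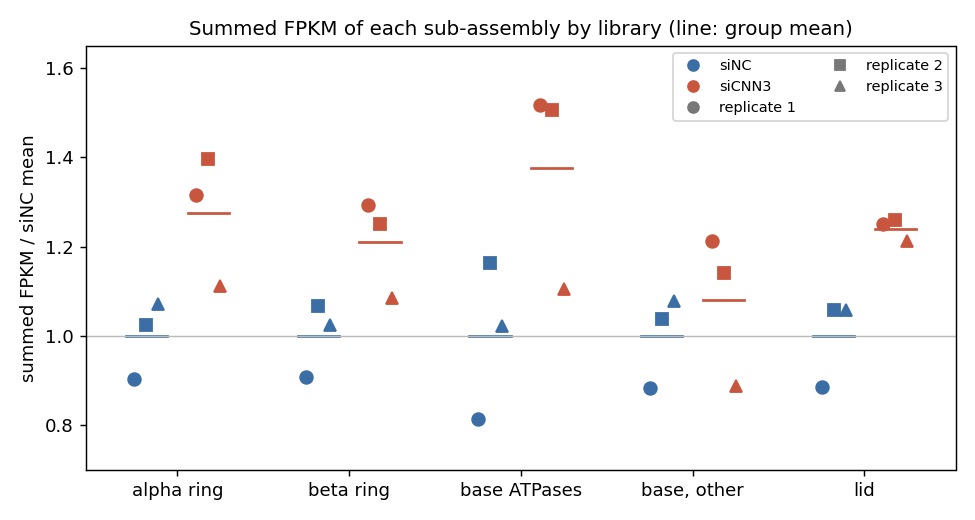
Summed FPKM of each sub-assembly in each library, divided by the siNC mean, with a line at the mean of each group. SiCNN3 replicate 3 (triangle) is the lowest red point in every sub-assembly, and siNC replicate 1 (circle) is the lowest blue point.

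The members deviated together between libraries of one group. The median deviation of the members from their siNC means was -0.19, 0.14 and 0.0612 on the log2 scale in siNC and 0.40, 0.43 and 0.16 in siCNN3, whereas that of all genes was between -0.11 and 0.0610 in the 6 libraries. SiNC replicate 1 was the lowest siNC library in 28 members and siNC replicate 2 the highest in 23. The median coefficient of variation of a member was 12.9% in siNC and 12.4% in siCNN3, and the median standard error of the log2 fold change was 0.151 for members and 0.185 for all genes. The 32 members are therefore not independent of each other, and their counts describe 6 libraries and not 32 separate results.

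The 3 immunoproteasome subunits were all called higher by limma, beside 1.73% of all genes tested. Psmb8 measured 0.579, 0 and 0.425 FPKM with siNC and 24.1, 23.1 and 8.21 FPKM with siCNN3 (log2 fold change 3.76, SE 0.411, limma adjusted p = 0.0108). Psmb9 measured 0.155, 0.460 and 0.0575 FPKM with siNC and 23.1, 20.8 and 6.12 FPKM with siCNN3 (log2 fold change 3.68, SE 0.461, limma adjusted p = 0.0153). Psmb10 measured 2.42, 6.96 and 4.36 FPKM with siNC and 51.1, 41.8 and 18.1 FPKM with siCNN3 (log2 fold change 2.73, SE 0.444, limma adjusted p = 0.0349). The siNC values of Psmb8 and Psmb9 are below 1 FPKM, so the size of their fold changes depends on the pseudocount, and with 0.1 in place of 1 they were 5.67 for Psmb8 and 5.68 for Psmb9. As with the constitutive subunits, siCNN3 replicate 3 was the lowest of its group.

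These calls depended on the test and on single libraries. The ordinary test of each gene called none of the 3, but it called 0 of all genes. With the replicate number as a block Psmb10 was not called (limma adjusted p = 0.0739), in a fit that called 62 genes higher and 6 lower where the fit without it called 200 and 39. Psmb8 lost its call without siNC replicate 3 or siCNN3 replicate 2 (limma adjusted p up to 0.0655). Psmb9 and Psmb10 lost theirs when replicate 1 or 3 of siNC or replicate 1 or 2 of siCNN3 was left out (limma adjusted p up to 0.0905 and 0.150). The log2 fold changes of the 3 genes stayed at 2.42 or more in each of these fits.

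Each immunoproteasome subunit takes the place of 1 constitutive subunit, and their FPKM were set side by side within a library. Psmb8 made up 1.45%, 0% and 0.849% of the sum of Psmb8 and Psmb5 in siNC and 28.4%, 28.1% and 16.3% in siCNN3. Psmb9 made up 0.125%, 0.336% and 0.0434% of its sum with Psmb6 in siNC and 12.6%, 11.7% and 4.07% in siCNN3. Psmb10 made up 3.49%, 6.996% and 4.93% of its sum with Psmb7 in siNC and 34.9%, 30.6% and 18.0% in siCNN3.

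In all 3 pairs every siCNN3 library was above every siNC library, and the constitutive subunit still had the larger share in each library. The log2 ratio of the pair, taken of FPKM + 1, was higher in siCNN3 by 3.62 for Psmb8 to Psmb5, by 3.44 for Psmb9 to Psmb6 and by 2.56 for Psmb10 to Psmb7. With a pseudocount of 0.1 these differences were 5.52, 5.44 and 2.81, so their size depends on it. Each had an exact two-sided permutation p of 0.1, the smallest that 3 against 3 can give, and 0.1 adjusted over the 3 pairs.

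**Figure D5:**
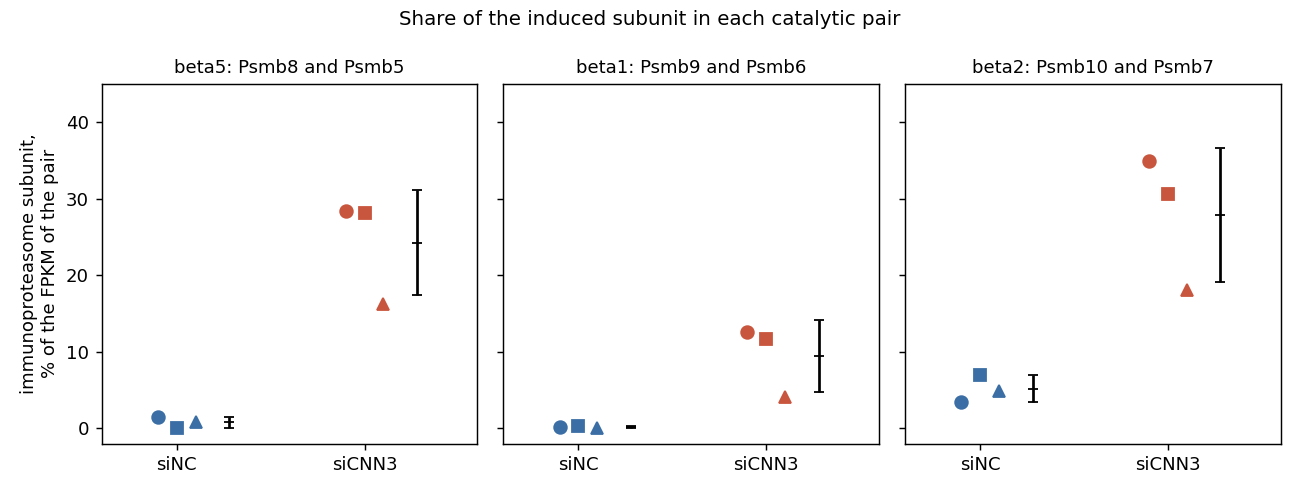
Share of the immunoproteasome subunit in the FPKM of its catalytic pair, in percent, for each library, with the mean and SD (n = 3) beside the points. The siNC points lie at 6.996% or less and the siCNN3 points between 4.07% and 34.9%, with no overlap within a pair.

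Caps other than the 19S also bind the core. Psme1, a subunit of the interferon-induced PA28 activator, measured 27.9, 42.0 and 34.2 FPKM with siNC and 109.0, 106.3 and 89.8 FPKM with siCNN3 and was called higher (log2 fold change 1.54, SE 0.170, limma adjusted p = 0.0110). That call was lost in the ordinary test, as were those of all genes, and when replicate 3 of siNC or replicate 1 or 2 of siCNN3 was left out (limma adjusted p up to 0.0718). Psme2, its partner in the ring, measured 35.2, 102.9 and 61.2 FPKM with siNC and 172.9, 156.7 and 115.5 FPKM with siCNN3, without overlap and not called (log2 fold change 1.26, limma adjusted p = 0.157).

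Psme3, the nuclear form of PA28, had means of 31.1 ± 6.28 and 39.04 ± 8.86 FPKM (SD, n = 3 each), with overlap. Psme4, the PA200 activator, was the 1 gene of the 5 with lower values, with 28.2, 23.7 and 27.7 FPKM for siNC and 19.98, 19.9 and 22.9 FPKM for siCNN3 without overlap (log2 fold change -0.33, limma adjusted p = 0.278). Psmf1, an inhibitor of the core, had means of 4.14 ± 0.891 and 6.49 ± 0.673 FPKM (SD, n = 3 each), a log2 fold change of 0.56 that was not called (limma adjusted p = 0.194).

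Genes that build, feed or regulate the proteasome were described by lists. Of the assembly chaperones 8 were tested and 0 called by limma, with a median log2 fold change of 0.27. All 8 were above 0, 1 was higher at an unadjusted p below 0.05, and 3 were higher without overlap. Among all genes tested, 54% were above 0, 9.94% higher at that p and 13.8% higher without overlap. These shares also serve for the lists that follow. The largest values were 0.60 for Psmg4 (limma adjusted p = 0.0772), with group means of 20.8 ± 1.31 and 32.2 ± 3.66 FPKM (SD, n = 3 each), and 0.41 for Psmg3, neither past the threshold. Psmg4, a chaperone of alpha ring assembly, was called without siCNN3 replicate 3 (limma adjusted p = 0.0335). That fit called 444 genes higher and 161 lower, where the fit of all libraries called 200 and 39. With any other library left out Psmg4 was not called (limma adjusted p up to 0.30).

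Of 13 proteasome-associated proteins, among them the small lid protein Sem1, deubiquitinases and shuttle factors, 0 were called, 3 were higher at an unadjusted p below 0.05, and the median was 0.11. Of these 13, 9 were above 0 and 5 were higher without overlap. Zfand2a, an arsenite-inducible partner of the proteasome, had a log2 fold change of 0.80 that did not pass the threshold. Of 7 genes of the NRF1 pathway 0 were called, 2 were higher at an unadjusted p below 0.05, and the median was 0.20. Here 6 were above 0 and 2 were higher without overlap. Mafk, a DNA-binding partner of NRF1, had a log2 fold change of 0.50 (limma adjusted p = 0.270), and Nfe2l1, which encodes NRF1, had one of 0.31 (limma adjusted p = 0.396), with 16.6, 16.01 and 17.8 FPKM for siNC and 22.4, 24.5 and 16.9 FPKM for siCNN3 with overlap.

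Of 7 genes of the p97 unfoldase and its cofactors 0 were called, 1 was higher at an unadjusted p below 0.05, and the median was 0.21, with the largest values in Nsfl1c (0.33) and Ufd1 (0.30), neither past the threshold. Of the 7, 5 were above 0 and 2 were higher without overlap.

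Complexes related to the lid in structure, and a further ring complex, were set beside the members. The COP9 signalosome, which resembles the lid, had 0 of 9 genes called, 0 at an unadjusted p below 0.05, 1 higher without overlap, and a median of 0.20, with the largest values in Cops5 (0.58), its protease, and Gps1 (0.31), neither past the threshold. Of its 9 genes, 7 were above 0. Without siNC replicate 2, Cops5 was called (limma adjusted p = 0.0499). The translation factor eIF3 had 0 of 14 called and a median of 0.13, with 10 genes above 0 and 4 below. At an unadjusted p below 0.05, 2 were higher, and without overlap 2 were higher and 1 lower. Eif3d had 0.41 (limma adjusted p = 0.0751). It was called without siCNN3 replicate 3 (limma adjusted p = 0.0463), in a fit that called 444 of all genes higher where the fit of all libraries called 200. Eif3j2 had a value of 0 in every library but siCNN3 replicate 1, where it measured 19.2 FPKM. The chaperonin CCT, which folds actin and tubulin, had 0 of 7 called, 1 higher at an unadjusted p below 0.05, 4 higher without overlap (57.1%, beside 50% of the members), and a median of 0.22, with the largest values in Cct7 (0.39) and Cct3 (0.31), neither past the threshold. Of the 7, 6 were above 0. The shares over all genes were 54% above 0, 9.94% higher at that p and 13.8% higher without overlap. Differences between the members and these complexes were not tested.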

How the data were processed

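RNA of C2C12 cells was sequenced in 3 siNC and 3 siCNN3 libraries. The authors deposited FPKM values for 24023 Ensembl transcripts. The submitters' processing notes list Bowtie 0.12.2 and the builds mm8 and mm10 without a role, and the number of reads, the annotation and the program behind the FPKM are not given in the sources used here, so depth and counting error are unknown. Identifiers without their version were matched to GENCODE annotation of GRCm38 (23949 matched) and FPKM were summed per gene.

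The 11593 genes that averaged 0.5 FPKM or more were fitted on log2(FPKM + 1) with limma 3.58.1 in R 4.3.3, with a mean-variance trend, a two-sided moderated test and Benjamini-Hochberg adjustment over all genes (threshold 0.05). The fit was tested on simulated data, with planted changes larger than those of any member and genes that varied independently. That run does not show how the fit performs for small changes shared by many genes. Catalytic pairs were compared with exact two-sided permutation tests. Python 3.11.15 (pandas 2.3.3, numpy 2.4.6, matplotlib 3.10.9) served for tables, promoter searches and figures. The members and lists were chosen with earlier results of these data known. Full values are given for the 3 members with the largest positive and the 3 with the most negative fold change, the 3 highest and 3 lowest by FPKM, Psmb5, Psmb6, Psmb7, the ATPases, Psmd4, Psmd14 and Adrm1. In each further list up to 3 called genes, or else the 2 with the largest absolute fold change, are named, most of them by their fold change alone. Some genes that this rule names in the further lists are not reported here. Further members given in full were chosen after their values were seen. As alternatives, the fit was repeated with a pseudocount of 0.1, without the filter and with one at 5 FPKM, after scaling by median of ratios or by quantiles, with the replicate number as a block, with each library left out, without limma's trend, with an ordinary test per gene, without transcripts that had a 0 in one library although a library of their group had at least 10 FPKM, and per transcript. Same-numbered libraries did not deviate together in all cases (r = -0.278, 0.314 and -0.0247 for numbers 1, 2 and 3, across genes). The highest r between the groups, 0.442, was that of siNC replicate 1 and siCNN3 replicate 3, so the numbers were not taken as pairs.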

Additional observations from a re-analysis of the deposited data

How the results depend on the processing

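Over the 10 alternatives that can move a log2 fold change of a member, 309 of 320 recomputed values kept their direction, and 23 members were above 0 in all. The median of the members was between 0.18 and 0.29 under the 4 of these that keep all libraries and between 0.21 and 0.40 with each library left out.

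Under median-of-ratios scaling 1 member was called higher, beside 219 of all genes, 63 genes were called lower and the median of all genes was -0.00188. After quantile normalization 8 members were higher at an unadjusted p below 0.05, beside 947 of all genes, 199 genes were called higher and 93 lower, the median of all genes was -0.0451, and the log2 fold changes of Psma6, Psmb1, Psmc3 and Psmd3 were -0.0200, -0.0280, -0.0095 and -0.0123. The ordinary per-gene test called 0 genes higher, 0 lower and 0 genes of the pathway lists. The cause of these shifts was not tested.

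With the replicate number as a block, 62 genes were called higher and 6 lower, 0 members and 3 genes of the pathway lists were called, and Psmb10 was not called (adjusted p = 0.0739, limma). The numbers share no stated origin and not every library correlated best with its own number.

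With each library left out, which leaves fewer samples, between 0 and 3 members, between 16 and 444 genes higher, between 4 and 161 genes lower and between 0 and 7 pathway genes were called. Members higher at an unadjusted p below 0.05 numbered 5 to 19, beside 749 to 1651 of all genes, and members higher without overlap 16 to 27, beside 1836 to 3234 of all genes. The log2 fold change of Cnn3 was between -1.46 and -0.95, and the median of all genes between -0.0218 and 0.0572. Ranges that crossed 0 were -0.0027 to 0.31 for Psmb5, -0.0055 to 0.31 for Psmd1, -0.13 to 0.39 for Adrm1, -0.0154 to 0.16 for Psmd3, -0.10 to 0.24 for Psma6, -0.37 to 0.11 for Psmd2 and -0.0632 to 0.33 for Psmd8, and Eif3j2 ran from 0 to 2.17.

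FPKM carry no read numbers, so the precision at low values such as those of Psmb8 and Psmb9 in siNC cannot be stated, and a 0 cannot be told apart from a failed estimate.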
